A study of Mus musculus with 9 samples.

Results

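The sirtuins are a family of 7 genes in the mouse, Sirt1 to Sirt7, and all 7 were taken by their Ensembl IDs from the 53465 gene IDs of the count data, whatever their values. The RNA came from hearts of immunodeficient NOD-SCID mice, with 3 libraries from sham-operated hearts, 3 from hearts with coronary artery ligation and 3 from ligated hearts implanted with cells named FOXO3-GE-MPCs (called sham, ligation and cells below). The labels place every library in the infarct border zone, sham hearts included, and the cells hearts share the ligation of the second group. They do not spell out the cells' name and give no age, sex, vehicle or time after surgery, and for cells replicates 2 and 3 the source field names FOXO4 and FOXO5 where the title and treatment name FOXO3, which were followed.

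Sirtuins are enzymes that remove acetyl and other acyl groups from lysines of proteins and spend the coenzyme NAD+ in each reaction, so their activity is tied to the supply of NAD+ in the cell. Sirt1, Sirt6 and Sirt7 act mainly in the nucleus, Sirt2 mainly in the cytosol, and Sirt3, Sirt4 and Sirt5 in mitochondria, which fill much of a cardiac muscle cell. In the heart the family is known for its control of fatty acid oxidation, of antioxidant defence and of FOXO transcription factors, which are substrates of Sirt1 and other members.

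Each library held 4549268 to 7515052 gene counts, and 13825 genes passed a filter on low counts, all 7 sirtuins among them. The sirtuins were read at 42 to 763 counts per library, the fewest for Sirt6 and the most for Sirt2. Cardiac muscle markers were abundant everywhere, with summed levels of 38913 to 51920 CPM (counts per 1e6 gene counts, with library sizes scaled by TMM factors), while 4 of 6 lymphocyte markers had at most 3 counts in every library. The file headers of sham replicates 1 and 2 share a name stem, as do those of ligation replicates 2 and 3. Counts of each of these pairs differed by more than sampling noise (mean chi-square per gene of 4.86 and 2.56, against 2.18 to 4.44 for the other replicate pairs), so neither is 1 library deposited again. Whether they come from 1 animal cannot be told from this, and the results are also given with such libraries summed. Nothing in the labels says whether the libraries of a group came from separate animals, so p-values measure only the spread between these libraries.

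After ligation 1 of the 7 sirtuins changed: Sirt5 fell, and no sirtuin rose. Between cells and ligation none passed the test, and between cells and sham Sirt5 and Sirt4 were lower. A gene is called changed where the quasi-likelihood test of edgeR gives a p under 0.05 after Benjamini-Hochberg adjustment over all 13825 genes. Of all genes tested, 38.2% were called between ligation and sham, 20.1% higher and 18.0% lower, so 1 called sirtuin of 7 is no more than that background. The shares were 9.87% between cells and ligation (4.19% higher and 5.69% lower) and 40.9% between cells and sham (21.0% higher and 20.0% lower), where 2 of the 7 sirtuins were called. The median log2 fold change of the 7 sirtuins was -0.02, 0.03 and -0.03 in the 3 comparisons, beside 0.01, 0.00 and -0.01 over all genes tested.

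**Figure D1:**
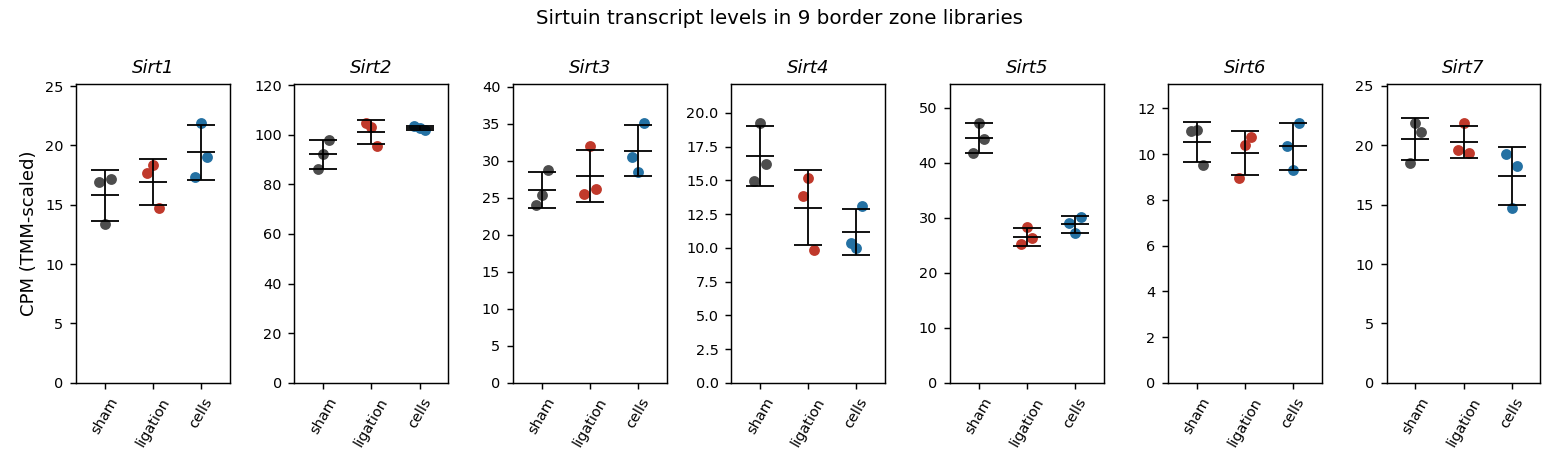
Levels of the 7 sirtuins in CPM scaled with TMM factors (vertical axes, each from 0) in the 3 libraries of each group, as points, with the mean and SD as black bars. The 3 sham points of Sirt5 lie between 41.8 and 47.3, above all 6 points of the other groups, while the groups of Sirt6 overlap.

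Sirt5 (ENSMUSG00000054021) encodes the mitochondrial enzyme that removes succinyl, malonyl and glutaryl groups from metabolic enzymes. It lies on the forward strand at chr13:43365496-43395203 (mm10), and its exons overlap those of no other annotated gene. It was read at 41.8, 47.3 and 44.3 CPM in the sham libraries, at 25.1, 28.4 and 26.25 CPM after ligation, and at 29.1, 27.2 and 30.1 CPM with cells. Every sham library was above every ligated one, whether or not cells were given. The mean was 44.5 ± 2.73 CPM (SD, n = 3) in sham and 26.6 ± 1.64 in ligation, a 1.67-fold fall (edgeR log2 fold change -0.74 with an SE of 0.0900, adjusted p 1.37e-06). Of the genes tested, 5.42% were lower after ligation by at least as much. With cells the mean was 28.8 ± 1.48 CPM, 1.55-fold below sham (edgeR log2 fold change -0.63 with an SE of 0.0880, adjusted p 7.73e-06). Against ligation the log2 difference with cells was 0.11, with a 95% interval of -0.08 to 0.30 (adjusted p 0.541, edgeR). That interval does not reach the 0.74 by which Sirt5 fell after ligation. With libraries of a shared header stem summed, the log2 fold change of Sirt5 was -0.77 after ligation (edgeR adjusted p 9.6e-06) and -0.65 in cells against sham (1.9e-05).

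Cell type markers and mitochondrial RNA differed between the same groups. The summed level of 10 cardiac muscle markers ran from 50331 to 51920 CPM in sham, 39941 to 41535 in ligation and 38913 to 39758 with cells, and 5 of the 10 fell and 3 rose after ligation. The sum of 8 fibroblast markers lay at 2299.5 to 2355 CPM in sham, 4280 to 4376 in ligation and 3993 to 4099.8 with cells, and that of 8 macrophage markers lay at 522 to 570, 1003 to 1027 and 413 to 431 CPM in sham, ligation and cells. Of 7 endothelial markers 6 fell and 1 rose after ligation, where 18.0% of all genes were lower, with summed levels of 2112 to 2245 CPM in sham, 1459 to 1566 in ligation and 1557 to 1602 with cells. For 6 neutrophil markers the sums were 39.8 to 47.3, 17.5 to 25.03 and 5.76 to 7.21 CPM, and for 6 smooth muscle and pericyte markers 1518 to 1569, 1101 to 1124 and 1119 to 1151 CPM. Mitochondrially encoded genes took 19.1% to 19.9% of gene counts in sham, 12.5% to 13.9% in ligation and 14.3% in each cells library. In such bulk tissue, fewer cells of a type and less RNA per cell cannot be told apart. Set against the cardiac muscle markers of the same library, Sirt5 stood at 81.8, 91.1 and 88.0 CPM per 100000 CPM of markers in sham, 60.5, 69.3 and 65.7 in ligation and 74.2, 68.4 and 77.4 with cells. On this ratio, which does not depend on library scaling, the lowest sham library, at 81.8, lay above the highest of the others, at 77.4 with cells. The marker sum follows its most abundant genes and does not measure the number of muscle cells. The part of muscle cell loss and of the other cell types was not tested.

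The promoter window of Sirt5 is shown because it is the member that fell, and that of Sirt1, the founding member of the family in mammals, for comparison. The Sirt1 window surrounds the RefSeq start, which lies inside the longer GENCODE gene given below, so its stretch is upstream of the former start only. Both come from the RefSeq promoter windows of GRCm38.p6 (the assembly that mm10 denotes) around each annotated start, and the stretch before the first annotated exon base of the window is printed, 5′ to 3′ on the gene's strand. A further 40 exon-free bases of the Sirt5 window, at chr13:43365545-43365584, hold none of the motifs and are left out. Capitals mark matches to AAGGTCA (a nuclear receptor half-site), CACGTG (an E-box) and GGGCGG (a GC box) on either strand, neighbouring GC boxes overlapping in Sirt1. The GC box of Sirt5 lies 36 bases before the start in annotated exon sequence and is not printed.
Sirt5 chr13:43365285-43365495 (+): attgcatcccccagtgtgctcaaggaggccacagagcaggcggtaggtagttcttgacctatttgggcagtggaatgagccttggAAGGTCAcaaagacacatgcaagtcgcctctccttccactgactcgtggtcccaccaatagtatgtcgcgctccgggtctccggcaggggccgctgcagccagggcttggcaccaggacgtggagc
Sirt1 chr10:63339051-63339285 (-): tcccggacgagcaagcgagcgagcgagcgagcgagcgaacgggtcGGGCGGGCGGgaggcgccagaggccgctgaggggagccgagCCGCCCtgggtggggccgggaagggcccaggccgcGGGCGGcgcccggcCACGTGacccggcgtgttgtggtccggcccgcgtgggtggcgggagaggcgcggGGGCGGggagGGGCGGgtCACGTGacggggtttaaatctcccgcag

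All 7 genes matched the RefSeq table, with 9 windows, since Sirt3 and Sirt6 have 2 each. The half-site AAGGTCA occurred in 1 of the 9 windows, that of Sirt5, 165 bases before the start, and in 4.72% of all 32851 windows of the same length. CACGTG occurred in 1 sirtuin window, that of Sirt1, at 2 positions, against 7.15% of all windows. GGGCGG occurred in 6 of the 9 against 35.7%, and the ETS motif CCGGAAG in 3 of the 9, in Sirt3, Sirt6 and Sirt7, against 8.86%. The palindrome bound by NRF1 was found in 1 window, of Sirt6, against 0.971%. The FOXO motif GTAAACA, searched on both strands like the others, was in none of the 9 and in 3.65% of all windows. GC content was 79% in the Sirt1 window and 62% in that of Sirt5, beside a median of 52.7% over all windows. These matches describe letters and not sites of binding.

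Sirt4 (ENSMUSG00000029524, reverse strand, chr5:115478010-115484725) encodes a mitochondrial sirtuin with weak deacetylase activity, known for restraining glutamate dehydrogenase. It was read at 14.95, 19.3 and 16.2 CPM in sham, at 13.85, 15.2 and 9.875 CPM in ligation and at 10.4, 9.99 and 13.1 CPM with cells. The ligation libraries overlapped both other groups, while every cells library was below every sham library. With cells it was 1.51-fold lower than in sham, at 11.15 ± 1.71 against 16.8 ± 2.23 CPM (edgeR log2 fold change -0.59 with an SE of 0.170, adjusted p 0.00807). The ligation mean of 13.0 ± 2.77 CPM differed from sham by -0.39 on the log2 scale (SE 0.169, adjusted p 0.0748, edgeR) and did not pass. Without ligation replicate 2 it did, with a log2 fold change of -0.54 and an edgeR adjusted p of 0.0326, while without ligation replicate 3 or sham replicate 2 it was -0.22 and -0.28 (adjusted p 0.347 and 0.268). Between cells and ligation the log2 difference of -0.20 had a 95% interval of -0.57 to 0.16, which holds both signs. Per 100000 CPM of cardiac muscle markers Sirt4 stood at 29.2 to 37.1 in sham, 24.7 to 37.1 in ligation and 25.1 to 33.7 with cells, so that, unlike for Sirt5, sham overlapped both other groups.

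Sirt3 (ENSMUSG00000025486, reverse strand, chr7:140863666-140882309) encodes the main deacetylase of mitochondria. Its level was 24.03, 25.4 and 28.7 CPM in sham, 25.6, 32.0 and 26.25 CPM in ligation and 30.5, 28.4 and 35.1 CPM with cells. The groups overlapped in every pair, cells and sham through a single cells library below the highest sham one. The log2 difference was 0.10 between ligation and sham (95% interval -0.14 to 0.35, adjusted p 0.518, edgeR), and 0.26 between cells and sham (0.03 to 0.50, adjusted p 0.0687). The latter passed without sham replicate 3 or without cells replicate 2, with log2 differences of 0.34 and 0.33 and edgeR adjusted p-values of 0.0433 and 0.0384. Per 100000 CPM of cardiac muscle markers Sirt3 stood at 47.0 to 57.1 in sham, 61.6 to 78.1 in ligation and 71.5 to 90.3 with cells, with sham below both other groups. Of its exonic bases 12.7% are also exonic in Psmd13, a proteasome subunit gene that starts 341 bases inside Sirt3 on the other strand, or in Ric8a at the other end, and reads there may be lost or misplaced. Neither neighbour passed in any comparison, Psmd13 standing at 92.1 ± 2.79, 85.9 ± 4.44 and 82.5 ± 3.47 CPM and Ric8a at 30.04 ± 2.30, 29.7 ± 2.11 and 29.8 ± 2.91 CPM in sham, ligation and cells (SD, n = 3).

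The 3 mitochondrial sirtuins therefore had unequal values within the same libraries, which the ratio of their raw counts shows without any scaling. The ratio of Sirt3 to Sirt5 counts was 0.574, 0.537 and 0.649 in sham, 1.02, 1.13 and 1 in ligation, and 1.05, 1.05 and 1.17 with cells. All 6 ligated libraries were above all sham libraries, and the mean moved from 0.587 ± 0.0571 to 1.05 ± 0.0693 and 1.09 ± 0.0694 (SD, n = 3). An exact permutation test (two-sided) gave p = 0.1 for both comparisons with sham, which is the lowest value this design of 3 and 3 libraries can give, and p = 0.5 between cells and ligation. The ratio of Sirt3 to Sirt4 counts was 1.57 ± 0.232 in sham, 2.20 ± 0.415 in ligation and 2.82 ± 0.133 with cells, with no overlap between any 2 groups and an exact permutation p of 0.1 each time. The ratio of Sirt4 to Sirt5 counts was 0.377 ± 0.0270, 0.488 ± 0.0968 and 0.386 ± 0.0429, with overlapping groups. With 2 further ratios, of Sirt1 and of Sirt2 to Sirt5, 15 comparisons were made and the smallest adjusted p was 0.167, so none could pass in this design. Sirt2 to Sirt5 was 1.95 to 2.21 in sham and 3.38 to 4.17 in the other 6 libraries, and Sirt1 to Sirt5 was 0.282 to 0.404 and 0.562 to 0.806.

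**Figure D2:**
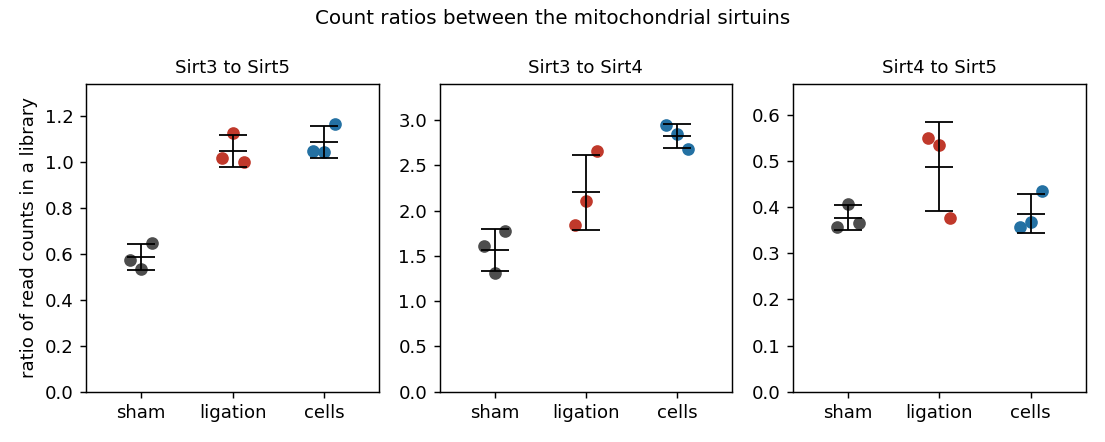
Ratio of raw read counts between pairs of mitochondrial sirtuins within each library (vertical axes, from 0), with 1 point per library and the mean and SD of each group as black bars. Sirt3 to Sirt5 lies at 0.537 to 0.649 in the sham libraries and at 1 to 1.17 in the other 6.

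Sirt2 (ENSMUSG00000015149, chr7:28766735-28788661) encodes the cytosolic deacetylase first known for acting on tubulin, and was the sirtuin with the most reads in all 9 libraries. It was at 86.3 to 97.8 CPM in sham, 95.4 to 105 CPM in ligation and 102 to 103 CPM with cells. Every cells library was thus above every sham library, though by little. The means were 92.1 ± 5.73, 101 ± 4.99 and 103 ± 0.852 CPM (SD, n = 3). The log2 difference was 0.13 between ligation and sham (95% interval 0.00 to 0.26, adjusted p 0.123, edgeR) and 0.15 between cells and sham (0.02 to 0.29, adjusted p 0.0601, edgeR), and neither passed. The latter passed without sham replicate 3, with a log2 fold change of 0.20 and an edgeR adjusted p of 0.0299.

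Of the nuclear members, Sirt1 (ENSMUSG00000020063, chr10:63319005-63381704) encodes a deacetylase of histones, p53 and FOXO factors. Its level was 13.3 to 17.1 CPM in sham, 14.75 to 18.4 CPM in ligation and 17.3 to 21.9 CPM with cells. All 3 cells libraries were above all sham libraries, and the log2 difference between them was 0.30 (95% interval 0.01 to 0.59), which did not pass after adjustment (unadjusted p 0.0457, adjusted p 0.0956, edgeR). Against sham the difference in ligation was 0.09 (-0.21 to 0.39, adjusted p 0.660, edgeR). Sirt6 (ENSMUSG00000034748, chr10:81621785-81627797), a histone deacylase tied to DNA repair and glucose metabolism, was at 9.52 to 11.04 CPM in sham, 8.95 to 10.75 CPM in ligation and 9.29 to 11.4 CPM with cells. These ranges overlap in every pair, and the log2 differences were between -0.05 and 0.03. With at most 86 counts in a library, Sirt6 could differ between ligation and sham by -0.39 to 0.29 on the log2 scale (95% interval) and not be detected. Sirt7 (ENSMUSG00000025138, chr11:120618372-120625240), the nucleolar sirtuin that promotes ribosomal RNA synthesis, was at 18.5 to 21.9 CPM in sham, 19.4 to 21.85 CPM in ligation and 14.7 to 19.3 CPM with cells. The cells libraries lay just below the ligation ones, with a log2 difference of -0.22 (95% interval -0.49 to 0.04, adjusted p 0.322, edgeR). It shares 124 exonic bases with Mafg and 54 with Mir6936.

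**Figure D3:**
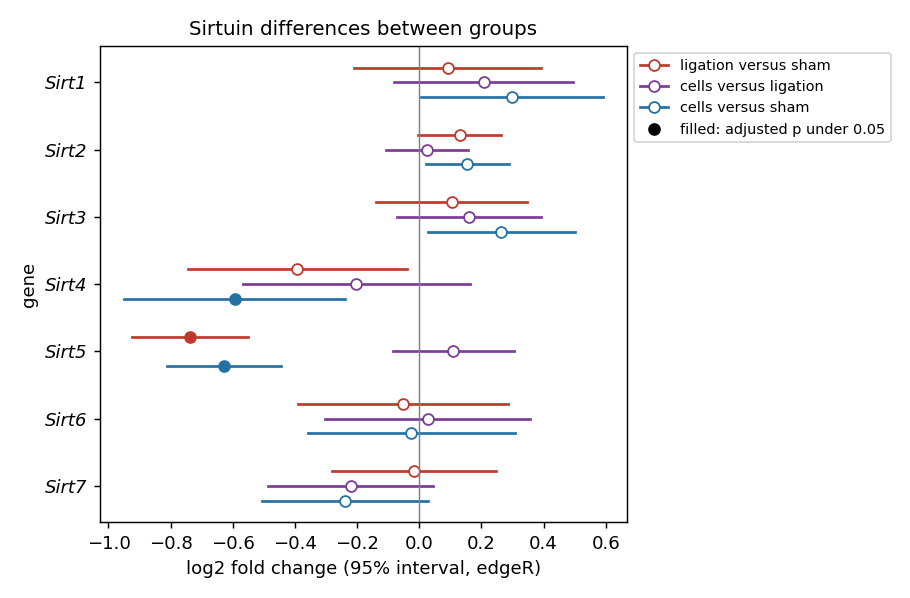
Log2 fold change of each sirtuin (horizontal axis) in the 3 comparisons, with 95% intervals from the edgeR fit as lines and filled circles for an adjusted p under 0.05. The filled circles are Sirt5 in ligation versus sham (-0.74) and, in cells versus sham, Sirt5 (-0.63) and Sirt4 (-0.59), while none is filled in cells versus ligation.

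Counted by libraries that do not overlap, 1 sirtuin separated ligation from sham (Sirt5), 1 separated cells from ligation (Sirt7) and 4 separated cells from sham (Sirt1, Sirt2, Sirt4 and Sirt5). Over all genes tested the share was 47.6%, 27.2% and 49.8%, so the sirtuin counts were below that background in the first 2 comparisons and near it, at 4 of 7, in the last. An unadjusted p under 0.05 in edgeR was reached by 2, 0 and 5 of the 7 sirtuins, beside 45.6%, 22.8% and 48.6% of all genes tested. DESeq2 and limma-voom also called 0 sirtuins between cells and ligation. Comparisons that share a group of libraries are not independent, and the values above are set side by side for that reason. Scaling bears on the small differences. Library totals alone in place of TMM factors shifted the median gene by 0.19 between ligation and sham and raised the share of called genes that were higher from 52.7% to 78.7%. Between cells and sham the share went from 51.2% to 73.1%, and between cells and ligation from 42.4% to 31.99%. On that scale Sirt5 still fell after ligation, by 0.55 on the log2 scale, and Sirt2 and Sirt3 passed as higher, with 0.32 and 0.29. Between cells and sham Sirt1, Sirt2 and Sirt3 passed as higher on it, with 0.46, 0.31 and 0.42 and edgeR adjusted p-values of 0.0101, 0.000399 and 0.00473.

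Per kilobase of exonic sequence not shared with another gene, which allows levels to be compared between genes, Sirt2 led in every group, with 18.4 ± 1.148 CPM per kilobase in sham, 20.2 ± 1.0001 in ligation and 20.5 ± 0.171 with cells (SD, n = 3). The exonic length is that of all GENCODE isoforms together, so these levels depend on which isoforms the heart uses. In sham it was followed by Sirt5 at 7.30 ± 0.448 and Sirt4 at 7.01 ± 0.929, which overlapped, then by Sirt3 at 4.996 ± 0.465, Sirt7 at 4.13 ± 0.358, Sirt6 at 3.78 ± 0.313 and Sirt1 at 3.0002 ± 0.404 CPM per kilobase. Sirt7 and Sirt6 overlapped and the other neighbours did not. In ligation the order was Sirt2, Sirt4, Sirt3, Sirt5, Sirt7, Sirt6 and Sirt1, with Sirt5 at 4.36 ± 0.268 now below all Sirt3 libraries and overlapping Sirt7 at 4.08 ± 0.275. With cells Sirt3 came second at 6.02 ± 0.660, above all libraries of Sirt5 at 4.73 ± 0.243, and Sirt4 at 4.65 ± 0.711 overlapped Sirt5. Sirt6, Sirt1 and Sirt7 were the lowest there, between 3.51 and 3.71 on average, and overlapped one another in turn.

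Summed over the family, the level per kilobase was 48.7 ± 2.39 CPM in sham, 46.3 ± 3.12 in ligation and 46.8 ± 1.93 with cells (SD, n = 3), and the groups overlapped. The mitochondrial members made up 38.6% to 41.3% of this sum in sham, 31.2% to 34.7% in ligation and 31.2% to 35.1% with cells. Sham did not overlap the other groups in this share. Sirt2 took 36.9% to 39.1% in sham, 41.7% to 45.3% in ligation and 41.7% to 45.6% with cells, and the nuclear members together took 21.8% to 24.5% over all 9 libraries. Sirt5 alone had 15.0% ± 0.496 of it in sham, 9.44% ± 0.541 after ligation and 10.1% ± 0.178 with cells. Shares of a sum depend on one another, so a lower share of one member raises the rest.

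The pattern of Sirt5 over the 9 libraries was most like those of Coro6, a coronin family gene, and Hrc, which encodes a calcium-binding protein of the sarcoplasmic reticulum. Likeness was measured as the root mean square difference of log2 CPM after centring each gene, among 9412 genes with a mean of at least 10 CPM, and was 0.0545 for Coro6 and 0.0627 for Hrc, beside a spread of 0.330 for Sirt5 itself. Coro6 averaged 310, 191 and 208 CPM and Hrc 817, 510 and 533 CPM in sham, ligation and cells. For Sirt4 the nearest were Slc25a22, a mitochondrial glutamate carrier, at 0.133, and Mndal, an interferon-inducible gene with near-identical relatives whose counts are therefore uncertain, at 0.138, beside a spread of 0.313. The points share 3 groups, and genes that separate them alike are close by this measure.

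The neighbours of the sirtuins were read in the same way. Beside Sirt5, Nol7, a nucleolar protein gene that starts 3187 bases beyond its end, fell after ligation from 108 ± 4.51 to 84.9 ± 3.98 CPM (SD, n = 3, log2 fold change -0.35, adjusted p 0.000489, edgeR). Gfod1, on the other side, averaged 38.5 ± 5.90 CPM in sham hearts and 45.4 ± 3.51 after ligation and did not pass (adjusted p 0.116, edgeR), while with cells it was higher than sham (log2 fold change 0.49, adjusted p 0.000875, edgeR). Beside Sirt1, Herc4, a ubiquitin ligase gene, rose by 0.28 on the log2 scale after ligation (adjusted p 0.0179, edgeR), and Dnajc12, a co-chaperone gene, was higher by 0.59 with cells than in sham (adjusted p 0.0143, edgeR). Pxn beside Sirt4, which encodes the adhesion protein paxillin, was lower with cells than in sham (log2 fold change -0.30, adjusted p 0.00224, edgeR), and Mafg beside Sirt7, a small MAF transcription factor gene, rose by 0.38 after ligation (adjusted p 0.000778, edgeR) and was lower with cells than with ligation alone (log2 fold change -0.24, adjusted p 0.0499, edgeR). Rinl beside Sirt2 fell by 0.82 on the log2 scale after ligation from 7.12 ± 1.04 CPM (adjusted p 0.0366, edgeR). Nfkbib, whose exons overlap those of Sirt2 by 42 bases, Ankrd24 beside Sirt6 and Pcyt2 beside Sirt7 did not pass in any comparison. Pla2g1b had 0 counts in all libraries and BC025920 too few to be tested.

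Genes that make, phosphorylate or carry NAD+, the coenzyme of the sirtuins, were taken as a list of 12, of which 10 were tested. After ligation 1 rose and 3 fell, and the median log2 fold change was -0.24 against 0.01 over all genes. The 4 called of 10 stand beside 38.2% of all genes tested, and with library totals alone 3 were higher and 2 lower, with a median of -0.05. Nmrk2, the muscle nicotinamide riboside kinase, rose from 48.7 ± 5.48 to 172 ± 5.47 CPM (SD, n = 3, edgeR log2 fold change 1.82 with an SE of 0.0733, adjusted p 7.67e-14), and was lower with cells than with ligation alone, at 145 ± 6.89 CPM (log2 fold change -0.25, adjusted p 0.0202, edgeR). That last call was lost without ligation replicate 2, ligation replicate 3 or cells replicate 1. Nmnat3, which makes NAD+ in mitochondria, fell from 14.7 ± 0.779 to 8.60 ± 0.829 CPM and Naprt, which uses nicotinic acid, from 35.1 ± 2.02 to 21.9 ± 3.33 CPM, with edgeR adjusted p-values of 0.000816 and 8.23e-05. Both were also lower with cells than in sham. Nampt, the rate-limiting enzyme of NAD+ salvage from nicotinamide, was at 170 ± 13.2, 177 ± 6.03 and 179 ± 9.81 CPM in sham, ligation and cells, and passed in no comparison. Scaled by library totals alone it passed as higher in ligation and in cells than in sham, with log2 fold changes of 0.25 and 0.24 and edgeR adjusted p-values of 0.00284 and 0.0037. Slc25a51, the mitochondrial NAD+ carrier, was higher with cells at 83.1 ± 3.82 CPM than with ligation alone at 67.9 ± 1.95 (log2 fold change 0.29, adjusted p 0.00571, edgeR).

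Of 11 tested genes for other enzymes that consume NAD+ or methylate nicotinamide, 1 rose and 2 fell after ligation, 27.3% against the 38.2% of all genes, with a median of -0.06. With library totals alone 3 were higher and 1 lower and the median was 0.13. Tnks, a poly-ADP-ribose polymerase known for modifying telomere proteins, rose from 42.7 ± 2.37 to 62.5 ± 5.92 CPM (adjusted p 1.44e-05, edgeR). Parp2, a DNA damage sensor, fell from 17.9 ± 1.10 to 12.1 ± 0.323 CPM (adjusted p 0.00199, edgeR), and Parp14 fell by 0.26 on the log2 scale (adjusted p 0.00391, edgeR), which did not pass with library totals alone. Parp1, the main DNA damage polymerase, was at 45.9 ± 1.26, 40.5 ± 0.880 and 43.7 ± 1.27 CPM, and Cd38, an NAD+ hydrolase of the cell surface, at 38.4 ± 1.06, 37.1 ± 2.46 and 33.7 ± 1.52 CPM, and neither passed. The log2 fold change of Parp1 in ligation versus sham was -0.18 (adjusted p 0.0639, edgeR), which passed with mitochondrially encoded genes removed and was 0.01 with library totals alone, where that of Cd38 turned from -0.06 to 0.13. Tnks2 was higher with cells than with ligation alone (log2 fold change 0.27, adjusted p 0.0192, edgeR), a call lost without ligation replicate 1, ligation replicate 3 or cells replicate 1.

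Among 8 direct regulators of sirtuins, 2 fell after ligation and none rose, 25% against 38.2% of all genes. Scaling by library totals alone gave 3 other genes as higher and none as lower, with a median of 0.18. Ccar2, which encodes an inhibitor that binds Sirt1, fell from 36.1 ± 0.581 to 27.4 ± 3.24 CPM, and Hic1, a repressor of Sirt1 transcription, from 41.4 ± 1.44 to 33.0 ± 3.03 CPM (SD, n = 3), with edgeR adjusted p-values of 0.00361 and 0.00793. With library totals alone neither passed, at log2 fold changes of -0.20 and -0.13. Between cells and ligation E2f1, a cell cycle factor, was lower (4.31 ± 0.782 against 1.65 ± 0.774 CPM, adjusted p 0.0133, edgeR), a call lost without ligation replicate 2 or cells replicate 3. With cells Ccar2 stood 0.45 below sham on the log2 scale (log2 fold change -0.45, adjusted p 0.000878, edgeR).

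Of the 13 nuclear and cytosolic substrates 4 were higher and 3 lower after ligation, 53.8% against 38.2% of all genes. Only 1 was lower without sham replicate 1, ligation replicate 2 or ligation replicate 3. Most other settings gave 2 lower, among them DESeq2, limma-voom, the other filters and the replicate block. Scaled by library totals alone, 5 were higher and none lower, with a median of 0.14 against -0.05. Hif1a, the hypoxia factor, rose from 66.003 ± 5.85 to 109 ± 1.11 CPM and Foxo4 from 54.4 ± 5.55 to 76.9 ± 2.63 CPM, with edgeR adjusted p-values of 2.97e-08 and 1.78e-05. Pparg and Ppargc1a, a lipid receptor and a coactivator of mitochondrial genes, fell by 0.45 and 0.31 (log2, edgeR adjusted p 0.00535 and 0.0111), and neither passed with library totals alone. Ppargc1a also lost its call without sham replicate 1, ligation replicate 2 or ligation replicate 3.

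Of 14 tested mitochondrial substrates, 10 fell and 2 rose after ligation, with a median log2 fold change of -0.23 against 0.01 over all genes, and 5 rose and none fell between ligation and cells. These are 85.7% of the list against 38.2% of all genes (18.0% lower) after ligation, and 35.7% against 9.87% (4.19% higher) between cells and ligation. Most genes of this list are abundant, and small differences pass more readily there, such as -0.17 for Sdha (log2, SE 0.0369) after ligation. The shares were not compared with those of genes of like abundance. With cells 9 of the 14 were still lower than in sham and 4 higher, with a median of -0.20, 92.9% of the list against 40.9% of all genes. With library totals alone 3 were lower and 5 higher, and the other alternatives gave 6 to 9 lower and 2 to 4 higher. Idh2, an NADP-linked enzyme near the Krebs cycle, fell from 2037 ± 62.6 to 1320 ± 23.3 CPM (SD, n = 3, log2 fold change -0.63, adjusted p 1.36e-11, edgeR) and stayed at 1334 ± 13.8 CPM with cells. Mlycd, the malonyl-CoA decarboxylase that Sirt4 acts on, fell from 108 ± 3.88 to 70.2 ± 3.19 CPM (adjusted p 8.35e-08, edgeR), and was higher with cells at 82.5 ± 1.42 CPM (adjusted p 0.0204, edgeR), the latter call lost with summed header stems or without ligation replicate 2, cells replicate 1 or cells replicate 3. Pdha1, a pyruvate dehydrogenase subunit, rose from 246 ± 8.93 to 420.2 ± 15.5 CPM and stood at 483 ± 20.9 with cells (log2 fold change from sham 0.97, adjusted p 2.87e-12, edgeR). Glud1, which Sirt4 modifies, rose by 0.16 on the log2 scale (adjusted p 0.0287, edgeR), a call lost in 7 of 20 alternatives. Opa1, which shapes the inner membrane, was higher with cells than with ligation alone (log2 fold change 0.22, adjusted p 0.0165, edgeR), but not without ligation replicate 2 or cells replicate 1. With library totals alone the list had 4 genes higher and 5 lower after ligation and a median of -0.04, and without single libraries or with other settings 1 to 5 genes rose with cells.

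The zinc-dependent histone deacetylases, the other large family of lysine deacetylases, had 4 genes lower and none higher of 11 after ligation. That share of 36.4% is near the 38.2% of all genes called in either direction and above the 18.0% called lower. The median log2 fold change was -0.15 against 0.01 over all genes. Hdac1 fell from 26.8 ± 2.72 to 19.05 ± 2.57 CPM and Hdac7 from 114 ± 6.59 to 87.8 ± 6.71 CPM (SD, n = 3), with edgeR adjusted p-values of 0.00485 and 0.000362. With library totals alone 2 other members of that family were higher and none lower after ligation, while Hdac1 and Hdac7 stood at log2 fold changes of -0.30 and -0.19 and did not pass. With cells 3 members were lower than in sham and 1 higher, 36.4% of the list against 40.9% of all genes (20.0% lower). Hdac1 and Hdac7 were lower by 0.68 and 0.52 on the log2 scale (edgeR adjusted p 0.00027 and 9.0e-06). Hdac9 was higher with cells than in sham (log2 fold change 0.37, adjusted p 0.0123, edgeR), a call lost without sham replicate 1 or cells replicate 2. Of 9 tested lysine acetyltransferases only Kat2b, which adds acetyl groups to histones, passed after ligation, 11.1% of the list against 38.2% of all genes. Kat2b rose from 66.9 ± 2.604 to 94.9 ± 3.78 CPM (adjusted p 3.63e-06, edgeR) and stood at 103 ± 5.38 CPM with cells. The library totals alone gave 3 higher acetyltransferases after ligation, with a median of 0.30, where 78.7% of all called genes were higher.

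**Figure D4:**
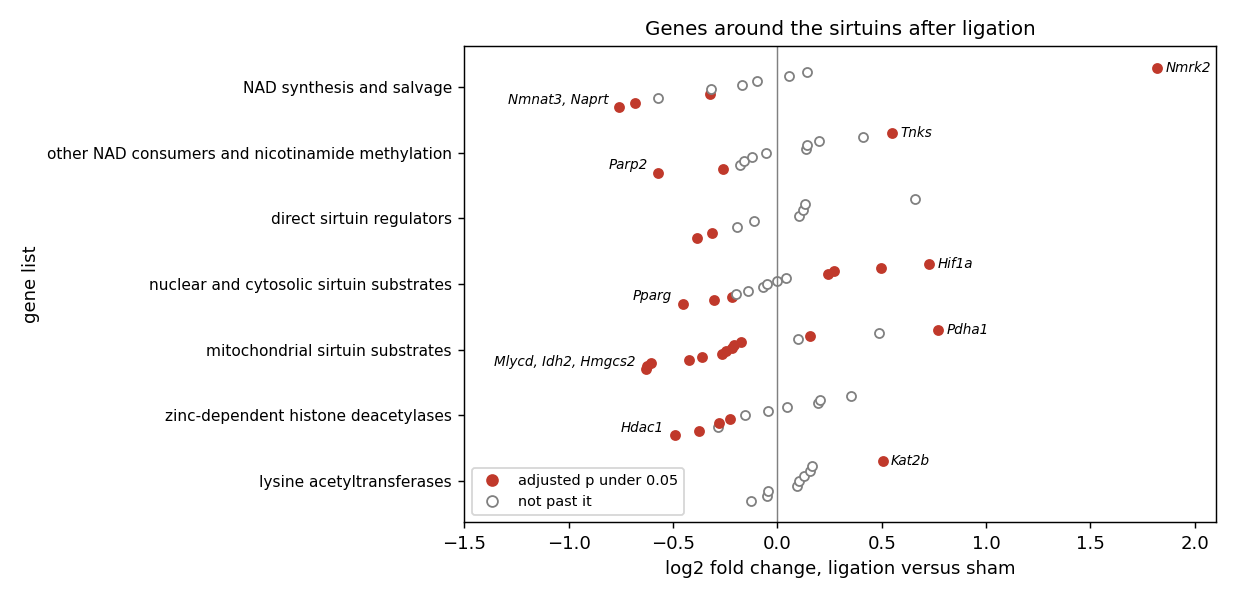
Log2 fold change between ligation and sham (horizontal axis) of the tested genes of 7 lists around the sirtuins, with 1 point per gene, red where the edgeR adjusted p is under 0.05. The largest is Nmrk2 (1.82) and the lowest is Nmnat3 (-0.76), and in the mitochondrial substrate list 10 of 14 points are red on the left of 0.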

How the data were processed

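Raw read counts per gene, deposited by the authors for 9 libraries, were the only values used. Per the labels, total RNA was extracted with TRIzol and NEBNext Ultra RNA libraries were made. Per the submitters' processing notes the build is mm10. Aligner, counter, strand setting and annotation release are not given in the sources used here, so reads of overlapping genes may be lost or misplaced. Rows naming no gene were left out (unassigned 4.14% to 4.91% of reads, ambiguous 8.09% to 8.72%). Symbols (53274 of 53465 IDs), coordinates and exon lengths came from GENCODE M21 on GRCm38.

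Groups and replicate numbers came from titles. In R 4.3.3, edgeR 4.0.16 (filterByExpr, TMM, glmQLFit, glmQLFTest, 1 mean per group, 6 residual degrees of freedom) tested 13825 genes, two-sided. Tested on simulated data in which 200 genes differed by a log2 fold change of 1, 158 were called with the right sign among 13663 genes, beside 14 false calls. Intervals cover the spread between libraries. CPM errors are SDs.

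The sirtuins, lists and rules were chosen with earlier results of these data known. Named genes were the sirtuins, their neighbours, Nampt, Nmrk2, Parp1 and Cd38, and the 2 nearest patterns of each called sirtuin. To these came the 2 largest called changes in each direction per list with a mean of at least 1 CPM. Some smaller ones are given only in counts or left out, such as Stub1 and Nr1h3, both lower with cells than in sham. Other settings tried were DESeq2 1.42.0 and limma-voom (limma 3.58.1), scaling, filters, the groups fitted, mitochondrial genes, the replicate number as a block and each library left out. Figures used matplotlib 3.10.9.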

Additional observations from a re-analysis of the deposited data

How the results depend on the processing

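In 20 alternatives, 9 of which each left out 1 library, Sirt5 remained called in ligation versus sham (log2 fold change -0.78 to -0.55) and in cells versus sham (-0.67 to -0.47), as did Sirt4 in cells versus sham (-0.73 to -0.44, edgeR, DESeq2 or limma adjusted p up to 0.0493). Summing libraries by header stem was chosen after seeing the data and called the same numbers of sirtuins, 1, 0 and 2. With library totals alone 3 sirtuins were called in ligation versus sham and 5 in cells versus sham, since that scaling shifts all genes upward, by 0.19 and 0.16 at the median. It also turned Sirt6 and Sirt7 in ligation versus sham to 0.14 and 0.17, Sirt2 and Sirt6 in cells versus ligation to -0.0048 and -0.0038, and Sirt6 in cells versus sham to 0.13, none of which passed. Fits without 1 library called 1 to 2, 0 and 2 to 4 sirtuins. In these fits the log2 fold change of ligation versus sham ran from -0.0186 to 0.18 for Sirt1, -0.0040 to 0.18 for Sirt3, -0.12 to 0.0109 for Sirt6 and -0.0835 to 0.0311 for Sirt7. That of cells versus ligation ran from -0.0166 to 0.0477 for Sirt2 and -0.0478 to 0.10 for Sirt6, and that of cells versus sham from -0.10 to 0.0482 for Sirt6. The cause was not tested.

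With the replicate block, 1, 0 and 2 sirtuins were called, beside 5134, 1230 and 5511 genes in all. The titles give same-numbered libraries no link beyond the number. Deviations of these libraries from their group means correlated at -0.12 to 0.14 over 9414 genes, whose values depend on one another. With 3 libraries per group, such correlations cannot tell whether same-numbered libraries were paired. Depth limits Sirt6 most, whose lowest count of 42 has a 95% Poisson interval of 30.3 to 56.8, covering counting error only.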
